A study of Mus musculus with 2 samples.

Results

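The transcripts described here encode 8 proteins of hepatic sugar use, namely the glucose transporter Slc2a2, the regulatory protein Gckr, the glycolytic enzymes Pfkl, Pfkfb1 and Pklr, the fructose kinase Khk, the transcription factor Mlxipl (ChREBP) and its target Txnip. They were taken by gene symbol from the count tables, and all 8 of 8 symbols were found among 24421 genes. The source was liver RNA from male C57BL/6 mice that were 6 weeks old when a high-fat diet began and stayed on it for 12 weeks. The library labelled LKO came from mice carrying floxed Rora (RORα f/f) and the Alb-Cre transgene, in which the albumin promoter drives Cre in hepatocytes. Which liver cells kept RORα was not tested. The control library came from mice with the same floxed alleles (RORα f/f), with no Cre in the label. The labels do not say whether a library held 1 animal or a pool. By its title, the series looked for genes that depend on the nuclear receptor RORα as steatohepatitis progresses.

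Glucose enters the hepatocyte through low-affinity transporters, is trapped by phosphorylation and is broken down through phosphofructokinase and pyruvate kinase. Fructose is phosphorylated by ketohexokinase and joins the same route below the phosphofructokinase step. ChREBP, bound to its partner Mlx, responds to sugar phosphates and activates genes of glycolysis and lipid synthesis through carbohydrate response elements, which are pairs of E-boxes a few bases apart. Pklr and Txnip are textbook targets of this factor in liver.

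Promoter sequences are shown for Pklr and Txnip, which had the highest ratios among the members, and for Khk and Mlxipl, whose windows held an exact E-box. Each window runs from 250 bases before to 50 bases after a RefSeq start site (GRCm38.p6), and all 4 windows lie on the plus strand. Capitals mark the E-box CACGTG, or the paired element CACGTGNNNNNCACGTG matched with at most 2 mismatches. Both motifs read the same on either strand, so 1 search covers both strands.
Pklr, downstream start (chr3:89136373-89136672): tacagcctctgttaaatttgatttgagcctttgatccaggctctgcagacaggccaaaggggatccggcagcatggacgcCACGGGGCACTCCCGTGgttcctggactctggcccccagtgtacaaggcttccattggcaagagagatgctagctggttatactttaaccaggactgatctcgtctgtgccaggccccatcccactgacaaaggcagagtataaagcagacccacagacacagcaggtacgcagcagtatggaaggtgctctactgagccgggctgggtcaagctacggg
Txnip (chr3:96557707-96558006): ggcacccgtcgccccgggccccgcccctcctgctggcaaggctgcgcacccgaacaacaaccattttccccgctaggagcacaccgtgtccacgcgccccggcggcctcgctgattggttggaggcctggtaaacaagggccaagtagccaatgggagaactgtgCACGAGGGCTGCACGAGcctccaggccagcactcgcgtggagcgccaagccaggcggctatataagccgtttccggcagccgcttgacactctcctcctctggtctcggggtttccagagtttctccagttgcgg
Khk (chr5:30921309-30921608): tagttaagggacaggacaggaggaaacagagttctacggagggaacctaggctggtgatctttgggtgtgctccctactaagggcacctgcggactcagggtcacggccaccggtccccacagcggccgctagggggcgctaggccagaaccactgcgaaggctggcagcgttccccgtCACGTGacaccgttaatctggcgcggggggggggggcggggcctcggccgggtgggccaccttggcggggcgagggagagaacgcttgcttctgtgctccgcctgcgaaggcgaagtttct
Mlxipl, upstream start (chr5:135089640-135089939): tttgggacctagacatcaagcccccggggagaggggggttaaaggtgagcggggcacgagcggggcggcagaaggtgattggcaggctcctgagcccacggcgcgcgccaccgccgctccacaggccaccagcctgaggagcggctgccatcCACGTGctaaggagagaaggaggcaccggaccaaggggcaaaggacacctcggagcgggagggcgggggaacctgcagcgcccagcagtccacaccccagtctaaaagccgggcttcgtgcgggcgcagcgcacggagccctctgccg

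The paired element was found with 2 mismatches in Pklr, from base -170 to base -154 before the downstream start, and in Txnip, from base -85 to base -69. RefSeq gives 13 windows for the 8 members, and the other 11 held no such match. Among all 32851 RefSeq windows it occurred in 313, or 0.953%, while 23 (0.07%) held it with at most 1 mismatch, and 0 held it without a mismatch. The single E-box was found from base -71 to base -66 in Khk and from base -98 to base -93 in the upstream window of Mlxipl, and 7.15% of all windows held one. Liver uses the downstream Pklr start, which lies 481 bases from the upstream start used in red blood cells. The Mlxipl starts lie 17001 bases apart, and the upstream one gives the short ChREBP-β form, which ChREBP itself induces. The counts are totals per gene, so transcripts from different starts cannot be told apart. These matches describe letters in the windows and show no binding.

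**Figure D1:**
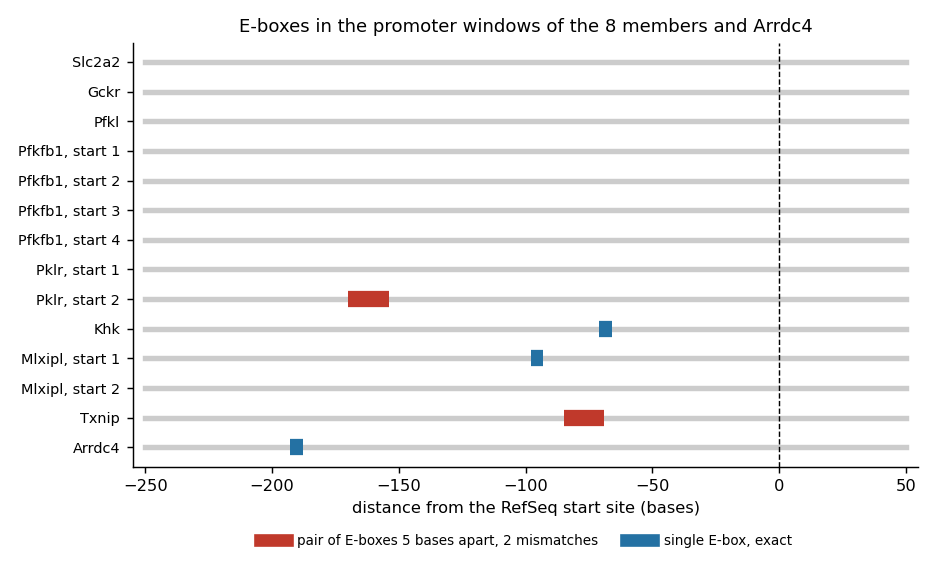
Positions of E-box matches (coloured blocks) in the promoter windows (grey lines) of the 8 members and of Arrdc4; the horizontal axis is the distance from the RefSeq start site in bases. Only the downstream Pklr window and the Txnip window hold the paired element, while Khk, the upstream Mlxipl window and Arrdc4 hold a single exact E-box.

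Read counts summed to 131843686 in the library labelled LKO and 128201591 in the control library. Levels are CPM, read counts scaled to library size after TMM normalization, which makes the bulk of genes equal between libraries. Each ratio divides the library labelled LKO by the control library, and its 95% exact interval reflects counting error alone. Replicates are lacking, with 1 library per genotype, so no p-value is given and every statement compares these libraries, not the genotypes. The term measured is used for the 11137 genes, all 8 members among them, that averaged 1 CPM or more and had a summed count of at least 20. Calls of higher or lower required a 1.5-fold ratio whose interval left out 1. Rora, the targeted gene, had 24.1 CPM in the library labelled LKO and 33.4 CPM in the control library, a 1.38-fold (interval 1.32 to 1.45) difference of a gene total that does not isolate the deleted part. Because this total was retained, directions are given for the library by its label.

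Txnip and Pklr were higher in the library labelled LKO, and the other 6 members lay within 1.5-fold. Thus 2 of 8 members were called higher and 0 lower, against 10.5% of all measured genes called higher and 9.76% called lower. The members were chosen with earlier results of these data known. Their median log2 ratio was 0.37, beside -0.003 over all measured genes. Of their 8 ratios 7 were above 1, as were 5540 of the 11137 over all measured genes. These counts depend on the scaling. With total-count scaling every log2 ratio rises by 0.42, 6 members were higher, and the split over all genes was 3866 higher and 282 lower, against 1169 and 1087 with TMM. With totals that leave out the 20 most abundant genes, 4 members were higher.

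**Figure D2:**
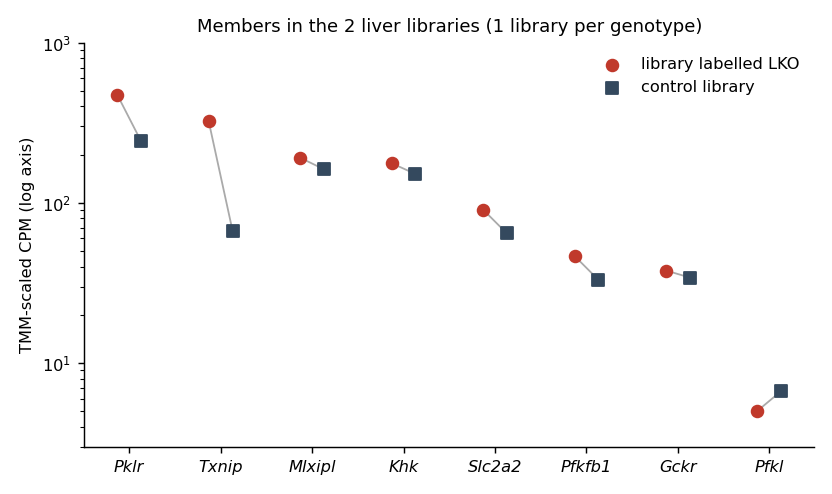
TMM-scaled CPM (log axis) of each member in the library labelled LKO (red circles) and the control library (dark squares), ordered by mean level, 1 library per genotype. Txnip shows the widest gap, at 322 and 67.3 CPM, and Pfkl is the only member that is lower in the library labelled LKO.

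Slc2a2 (chromosome 3, 28697903 to 28731359, plus strand, GRCm38), which encodes GLUT2, the main glucose transporter of hepatocytes, had 13844 counts in the library labelled LKO and 7148 in the control library. This was 90.8 and 64.5 CPM, a ratio of 1.41 (interval 1.37 to 1.45) that stayed under the 1.5-fold call. Like the other 7 members it is annotated as protein coding. Per kb of merged exons it was also the most abundant of the glucose transporters compared, at 15.8 CPM per kb in the library labelled LKO and 11.2 CPM per kb in the control library. The urate and glucose transporter gene Slc2a9 followed at 8.70 and 8.15 CPM per kb. Slc2a1, the transporter of many proliferating cells, stood at 2.10 and 1.92 CPM per kb. The intervals of Slc2a9 (1.03 to 1.11) and Slc2a1 (0.999 to 1.205) lay below that of Slc2a2.

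Gckr (chromosome 5, 31297443 to 31327314, plus strand), whose protein restrains glucose phosphorylation in hepatocytes, had 5769 counts in the library labelled LKO and 3793 in the control library. At 37.8 and 34.2 CPM its ratio was 1.11 (interval 1.06 to 1.15), the member ratio closest to 1. Per kb, Gckr stood at 8.73 CPM in the library labelled LKO and 7.89 CPM in the control library.

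Among the other glucose transport and trapping genes, 6 of 13 were measured. Of these 0 were higher, 1 lower and 5 neither, beside 10.5% higher and 9.76% lower over all measured genes. The list's median log2 ratio was 0.11. With total-count scaling 2 were higher and 0 lower, and without the filter on low levels 3 were higher and 1 lower. The lower gene was Hk3, the hexokinase of myeloid cells, at 2.28 and 3.65 CPM, 1.60-fold (interval 1.38 to 1.85) lower. That call was lost with total-count scaling and with totals that leave out the 20 most abundant genes. Of 11 measured Kupffer cell and macrophage markers 7 were also lower and 0 higher, against 9.76% of all measured genes called lower. The list of 12 summed to 131 CPM in the library labelled LKO and 199.5 CPM in the control library. The median log2 ratio of these markers, -0.64, would be less negative by 0.42 with total-count scaling, and fewer markers would then be called lower. Their part in the Hk3 value was not tested. In bulk tissue, fewer cells of a type and less RNA per cell cannot be told apart. Hk2, an insulin-responsive hexokinase of muscle and fat, was under the filter with 115 counts in the library labelled LKO and 21 in the control library, a ratio of 3.98 (interval 2.49 to 6.68). Hk1, at 1.89 and 1.68 CPM, had a ratio of 1.13 (interval 0.933 to 1.36). Slc2a8 stood at 4.72 and 3.89 CPM, while Adpgk, for an ADP-dependent sugar kinase, was at 3.67 and 5.07 CPM, both within 1.5-fold.

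Pfkl (chromosome 10, 77986947 to 78010083, minus strand), the liver-type phosphofructokinase of the committed step, was the exception among the members. It had 768 counts in the library labelled LKO and 743 in the control library, or 5.04 and 6.70 CPM, 1.33-fold (interval 1.201 to 1.47) lower and short of the call. Its log2 ratio of -0.41 became 0.01 with total-count scaling and -0.59, past the call, after correction for transcript length and GC content. The liver-type gene was not the most abundant of its family. Per kb, the muscle-type gene Pfkm stood at 3.01 CPM in the library labelled LKO and 3.12 CPM in the control library, against 0.755 and 1.004 CPM per kb for Pfkl. Pfkm had a ratio of 0.965 (interval 0.894 to 1.04). Pfkp, the platelet type, was lowest at 0.112 and 0.135 CPM per kb, with a ratio of 0.828 (interval 0.682 to 1.01). The order Pfkm, Pfkl, Pfkp was the same in both libraries.

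Pfkfb1 (chromosome X, 150588229 to 150643878, plus strand) encodes the liver form of the bifunctional enzyme that makes and removes fructose 2,6-bisphosphate, the activator of phosphofructokinase. It had 7112 counts in the library labelled LKO and 3673 in the control library, or 46.6 and 33.1 CPM, with a ratio of 1.41 (interval 1.35 to 1.47). Its log2 ratio of 0.49 equalled that of Slc2a2 to the second decimal, and with the length and GC trend removed it reached the call at 0.59. Of its exonic bases, 123 overlap Apex2 on the other strand. Apex2 had 543 and 368 counts. Within the family, Pfkfb1 held 56.4% of the summed level per kb in the library labelled LKO and 48.1% in the control library. Pfkfb3, at 40.7 and 38.7 CPM, and Pfkfb2, at 25.3 and 27.3 CPM, had ratios of 1.05 and 0.927. Pfkfb4 was under the filter, with 79 counts in the library labelled LKO and 16 in the control library.

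Pklr (chromosome 3, 89136142 to 89146784, plus strand), the pyruvate kinase of liver and red cells, had 72098 counts in the library labelled LKO and 26915 in the control library. This was 473 and 243 CPM, 1.95-fold (interval 1.92 to 1.97) higher, and 463 of the 11137 measured genes had a ratio at least as high. Hcn3 overlaps 711 of its exonic bases on the other strand and had only 522 and 265 counts. Per kb, the members with the highest levels in the library labelled LKO were Pklr at 146 CPM, Txnip at 103 CPM and Khk at 98.5 CPM. In the control library they were Khk at 84.3 CPM and Pklr at 75.03 CPM, with Mlxipl next at 29.3 CPM and Txnip at 21.5 CPM. Pklr thus stood above Khk per kb in the library labelled LKO and below it in the control library. Pklr far exceeded Pkm, the pyruvate kinase gene of most other tissues, which had 2.81 CPM per kb in the library labelled LKO and 2.68 CPM per kb in the control library. The ratio of Pkm was 1.05 (interval 0.982 to 1.12), so the log2 ratio of Pklr exceeded it by 0.89. Among red blood cell genes, which mark the other cells that use Pklr, Hba-a1 and Hba-a2 had identical counts in both libraries and were entered once. The 5 remaining entries summed to 684 CPM in the library labelled LKO and 696 CPM in the control library, and of 4 measured ones 0 were higher and 1 lower. These near-equal sums hide opposite directions. Of the 4 measured entries 3 had a ratio above 1, and the median log2 ratio was 0.19. The lower one was Alas2, at 118 and 230 CPM. With both globin genes entered the sums were 1073 and 1007 CPM. Hepatocyte markers summed to 124749 and 167922 CPM, with 0 of 9 higher, 2 lower and a median of -0.34 on the log2 scale. These marker values depend on the scaling, and over all measured genes 10.5% were called higher and 9.76% lower. With TMM the CPM of all genes summed to 864653 in the library labelled LKO and 1156530 in the control library. With total-count scaling every log2 ratio rises by 0.42, which would make the hepatocyte median positive. Of 8 stellate cell markers, all measured, 4 were higher and 0 lower. Their log2 ratios had a median of 0.60 and their levels summed to 278 and 197 CPM. Col1a1 and Col3a1, collagen genes of activated stellate cells named after their values were seen, were 6.48-fold and 3.09-fold higher. Acta2, another gene of activated stellate cells, was not, at 2.70 and 2.98 CPM with a ratio of 0.905 (interval 0.781 to 1.05). Lrat, the retinol-storing enzyme of these cells, was at 5.20 and 5.88 CPM. Of 8 endothelial markers 0 were higher and 0 lower, with sums of 433 and 338 CPM. Their part in the members' ratios was not tested.

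With TMM scaling the other measured enzyme genes of glycolysis lay within 1.5-fold. Of 15 other glycolytic enzyme genes 13 were measured, and 0 were higher and 0 lower by 1.5-fold, whereas 5 were higher and 0 lower with total-count scaling. Their median log2 ratio was -0.02, and it was positive with total-count scaling (0.40) and with totals that leave out the 20 most abundant genes (0.10). Gapdh, the glyceraldehyde phosphate dehydrogenase gene, was at 4168 and 3409 CPM with a ratio of 1.22 (interval 1.22 to 1.23). The enolase gene Eno1 stood at 399.9 and 315 CPM. Aldoc and Eno1 had its highest ratios at 1.29 and 1.27. The lowest were those of Pgk1 (1.28-fold lower), for phosphoglycerate kinase, and Eno3 (1.21-fold lower).

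Downstream of Pklr, genes of pyruvate handling went both ways. Of 18 measured genes for PFKFB enzymes and pyruvate fate, 4 were higher and 1 was lower, for a list median of 0.04 (log2 ratio). Over all measured genes 10.5% were called higher and 9.76% lower. With total-count scaling 7 of 19 list genes were higher and 1 lower, beside 3866 higher and 282 lower of 11167 genes. Pdk4, a kinase that shuts off pyruvate dehydrogenase, had 14.9 and 4.10 CPM and was 3.63-fold (interval 3.28 to 4.02) higher. Slc16a7, a monocarboxylate transporter gene, was 2.21-fold higher at 41.2 and 18.6 CPM. Dlat, a subunit of pyruvate dehydrogenase, and Pdk1 were the others called, at 1.77-fold and 1.72-fold; both fall outside the naming rule and were chosen after their values were seen. Pdp1, the phosphatase that switches pyruvate dehydrogenase on, was lower, with 111 counts in the library labelled LKO and 279 in the control library, 3.46-fold (interval 2.77 to 4.35). Tigar, which lowers fructose 2,6-bisphosphate, was at 2.19 and 3.11 CPM. Ldha, for lactate dehydrogenase, was nearly equal at 784 and 745 CPM, and Pdk2 stood at 129 and 92.5 CPM.

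**Figure D3:**
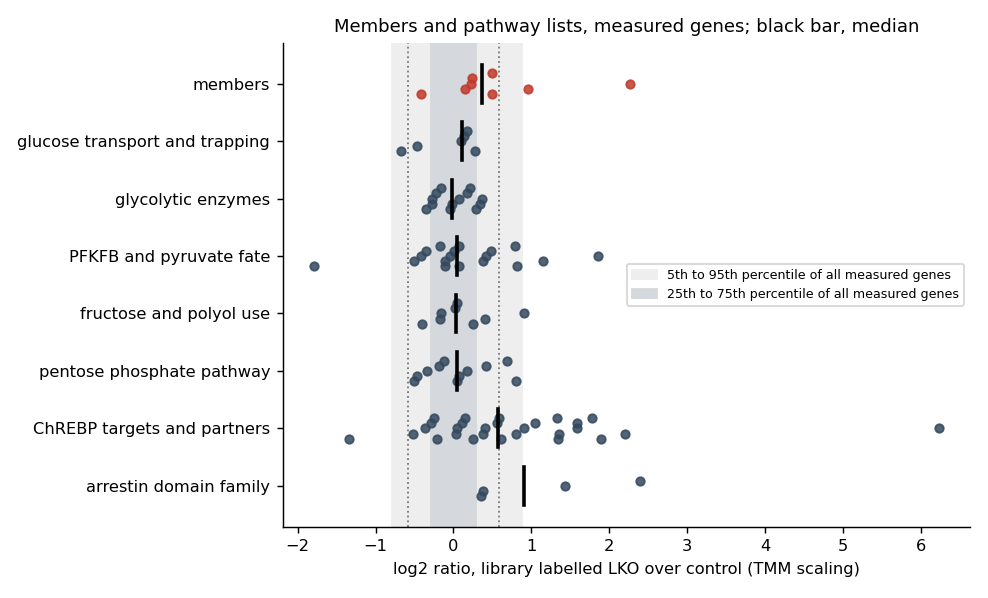
Log2 ratio, library labelled LKO over control, of the 8 members (red) and of the measured genes of 7 pathway lists (dark); black bars are medians, dotted lines mark 1.5-fold and the bands give percentiles of all measured genes. With this TMM scaling the glycolytic enzymes other than the members stay inside 1.5-fold (5 pass it upward with total-count scaling), whereas genes listed as ChREBP targets and partners spread to the right.

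Khk (chromosome 5, 30921431 to 30931248, plus strand), the ketohexokinase that commits fructose to hepatic use, had 26983 counts in the library labelled LKO and 16791 in the control library. At 177 and 151 CPM its ratio was 1.17 (interval 1.15 to 1.19), within 1.5-fold. Tkfc, the triokinase that acts later in the same route, had a near-identical ratio of 1.19 (interval 1.17 to 1.22) at 174 and 146 CPM. Per kb, Khk stood at 2.61 times Tkfc in the library labelled LKO and 2.67 times in the control library. Of 8 measured genes of fructose and polyol use 1 was higher (12.5%) and 0 lower, near the 10.5% of all measured genes called higher. With total-count scaling 3 were higher, beside 3866 of 11167 genes. The higher gene was Slc2a5, the fructose transporter GLUT5, with 381 and 148 counts and a ratio of 1.87 (interval 1.54 to 2.28). Sord, the sorbitol dehydrogenase that makes fructose from sorbitol, was at 829 and 802 CPM. Fbp1, the gluconeogenic fructose bisphosphatase, stood at 769 and 866 CPM. Aldh1a1 was at 279 and 210 CPM, and Glyctk, a glycerate kinase gene, was 1.32-fold lower.

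Mlxipl itself (chromosome 5, 135089890 to 135138382, plus strand), the gene of ChREBP, had 29180 counts in the library labelled LKO and 17967 in the control library. At 191 and 162 CPM its ratio was 1.18 (interval 1.16 to 1.203), which became a log2 ratio of 0.08 after correction for length and GC content, against 0.24 before. An annotated antisense gene, Gm43500, overlaps 235 of its exonic bases. Mlx, the partner that ChREBP needs for DNA binding, was at 44.0 and 63.2 CPM, 1.44-fold (interval 1.39 to 1.49) lower. Per kb, Mlxipl stood at 1.57 times Mlx in the library labelled LKO and 0.925 times in the control library. Which gene stands higher depends on the length used, since Mlxipl has 5538 merged exon bases but a longest transcript of 3622 bases. With total-count scaling the log2 ratio of Mlx of -0.52 would be less negative by 0.42. Mlxip, the gene of the paralog MondoA, stood at 9.41 and 6.15 CPM, past the call with a ratio of 1.53 (interval 1.40 to 1.68). Mlxipl remained 96.8% and 97.5% of the summed level of both factors per kb.

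Txnip (chromosome 3, 96557957 to 96561883, plus strand) showed the widest difference of the members. Its product is an α-arrestin that binds thioredoxin and limits glucose uptake. It had 49150 counts in the library labelled LKO and 7455 in the control library, or 322 and 67.3 CPM, 4.79-fold (interval 4.68 to 4.91) higher. Only 81 of the 11137 measured genes, itself included, had a ratio at least as high. Its log2 ratio of 2.26 ranged from 2.25 to 2.68 under 7 other settings. The antisense gene Gm15441 shares 606 exonic bases with it and had 2559 and 396 counts, 4.70-fold (interval 4.22 to 5.24) higher. Because the use of strand in counting is not known, reads of the pair cannot be told apart. Per kb, Txnip stood at 10.3 times Gm15441 in the library labelled LKO and 10.1 times in the control library.

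Of 4 measured members of the Arrdc family 2 were higher, beside 10.5% of all measured genes. All 4 were higher with total-count scaling, beside 3866 of 11167 genes. Arrdc3, which restrains adrenergic receptor signalling, had 82.9 and 15.8 CPM and was 5.26-fold (interval 5.002 to 5.53) higher. Arrdc2, at 5.02 and 1.86 CPM, had a ratio of 2.70 (interval 2.31 to 3.17). Arrdc4, like Txnip a known target of ChREBP and MondoA, had 5.15 and 3.95 CPM and a ratio of 1.30 (interval 1.16 to 1.47). The log2 ratio of Txnip exceeded that of Arrdc4 by 1.88. Arrdc1 was close to Arrdc4, with a ratio of 1.28.

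**Figure D4:**
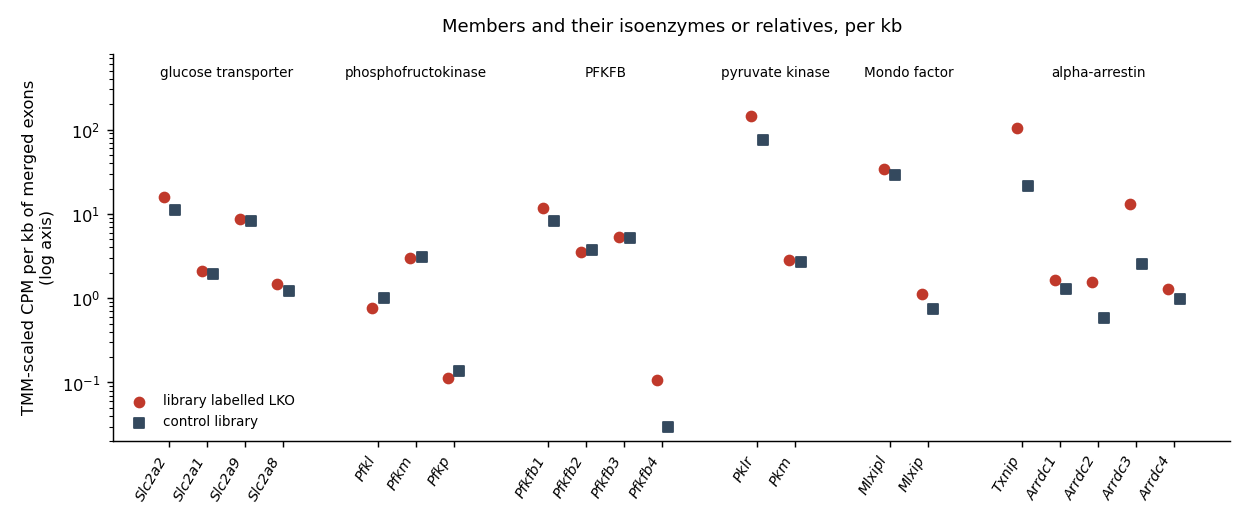
TMM-scaled CPM per kb of merged exons (log axis) for members and their isoenzymes or relatives, in the library labelled LKO (red circles) and the control library (dark squares), 1 library per genotype. Slc2a2, Pfkfb1, Pklr, Mlxipl and Txnip stand above their relatives in both libraries, while Pfkl lies below Pfkm.

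Of 28 genes listed as ChREBP targets and partners, all measured, 13 were higher, 1 lower and 14 neither. This was 46.4% higher and 3.57% lower, beside 10.5% and 9.76% of all measured genes, and the list's median log2 ratio was 0.57. Mlxip, listed as a partner, is among the 13. With total-count scaling 18 were higher and 1 lower, beside 3866 higher of 11167 genes. The list was drawn up with earlier results of these libraries known, and it is not independent evidence of a direction. Rgs16, a regulator of G protein signalling, had 15468 counts in the library labelled LKO and 149 in the control library, 75.5-fold higher. Fgf21, a hormone induced by sugar and by fasting, was 4.59-fold higher at 7.17 and 1.56 CPM. Klf10, a transcription factor gene induced through ChREBP in liver and chosen after its values were seen, was 3.42-fold higher at 43.2 and 12.6 CPM. The 14 called neither include Thrsp, Tm6sf2 and Gys2, with ratios of 1.02, 1.03 and 0.844, also chosen after their values were seen. Scd1, the desaturase that makes monounsaturated fatty acids, stood at 10198 and 3397 CPM. The single lower gene was G6pc, the glucose-6-phosphatase gene that ChREBP also induces, at 155 and 393 CPM, 2.53-fold (interval 2.49 to 2.57) lower. Apoc3, an inhibitor of lipoprotein clearance, stood at 11593 and 14930 CPM, with a ratio of 0.776.

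In the pentose phosphate pathway, which branches from glucose 6-phosphate, 2 of 11 measured genes were higher and 0 lower. This sits beside 10.5% higher and 9.76% lower over all measured genes, and the list median was 0.05 (log2 ratio). With total-count scaling 4 were higher, beside 3866 of 11167 genes. Tkt, the transketolase gene and a listed ChREBP target, had 87.2 and 49.9 CPM and a ratio of 1.75 (interval 1.69 to 1.80). Pgd, for 6-phosphogluconate dehydrogenase, had 26.3 and 16.3 CPM and a ratio of 1.61 (interval 1.52 to 1.70). H6pd and Pgls, which act in the oxidative branch or its microsomal counterpart, had ratios of 1.33 and 0.921. The lowest ratios were those of the ribose kinase gene Rbks (0.722) and the phosphoribosyl pyrophosphate synthetase gene Prps1 (0.702).

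**Figure D5:**
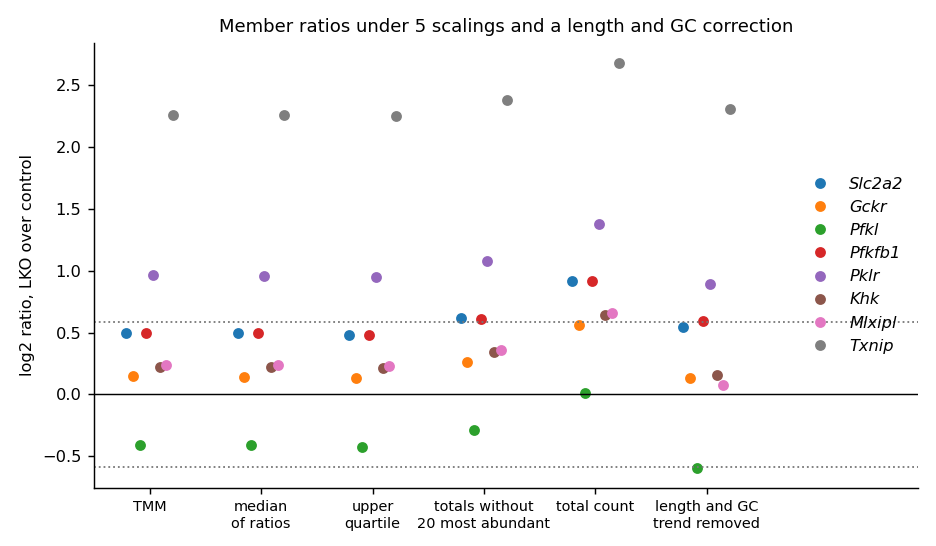
Log2 ratio, library labelled LKO over control, of each member under 5 scalings and with a length and GC trend removed; dotted lines mark 1.5-fold and the solid line a ratio of 1. Txnip and Pklr stay above the upper dotted line in all 6 columns, while Slc2a2, Pfkfb1, Khk and Mlxipl cross it with total-count scaling and Pfkl moves from below 0 to 0.01. Slc2a2 and Pfkfb1 also cross it with totals that leave out the 20 most abundant genes. With the length and GC trend removed, Pfkfb1 crosses the upper dotted line and Pfkl the lower one.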

How the data were processed

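The deposited tables give whole-number counts of reads for each gene symbol, not normalized by the authors. The submitters' processing notes name TopHat, edgeR and build mm10. Neither the role of these tools nor the counter, annotation or strand setting is given in the sources used here. Libraries were made from 500 ng of Trizol-extracted RNA with a LEXOGEN mRNA-Seq kit, per the labels' protocols.

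From the deposited counts, TMM factors were computed over all genes with edgeR 4.0.16 in R 4.3.3 (1.16 for the library labelled LKO and 0.865 for the control library). Ratios of scaled counts have 95% Clopper-Pearson intervals conditional on the summed count. No molecular identifiers are named, so PCR copies may count as separate reads, and intervals cover counting error only. Levels per kb use merged exons of GENCODE M21 (GRCm38), in which 23376 of 24421 symbols matched. Neighbours within 250 kb with a summed count of at least 20 were checked for count differences that matched a member's within 5%. Matches at a multiple or fraction of 2 were also taken, as when reads are counted at several genes. Slc5a6, 1 of 18 neighbours of Gckr, and Mapre3, 1 of 15 neighbours of Khk, matched. Whether these matches are coincidence was not tested. The ratio and interval code was tested on simulated counts.

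Members and lists were chosen with earlier results of these data known, and 2 list genes are not reported here and enter no list count or median. Besides the members and their paralogs, the text names the 2 highest, 2 lowest and 2 most abundant (by CPM) measured genes of each of 7 lists. Promoter windows are RefSeq's, from a table that is not complete. Alternatives were other scalings (DESeq2 1.42.0 size factors among them), filters, thresholds, a 99% interval, 5 added counts and removal of a length and GC trend (lowess, fraction 0.3, statsmodels 0.14.6).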

Additional observations from a re-analysis of the deposited data

How the results depend on the processing

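No paired analysis was possible because each genotype has 1 library, and for the same reason no library could be left out. Txnip and Pklr were higher by at least 1.5-fold under every scaling tried and with the length and GC trend removed. With total-count scaling 6 members and 40 of the pathway list genes were higher, the medians were 0.79 and 0.52, and over all genes 3866 were higher and 282 lower. With totals that leave out the 20 most abundant genes 4 members were higher and the medians were 0.49 and 0.23. At 1.2-fold, 4 members were higher and 1 lower, 35 list genes were higher and 16 lower, and 2930 genes were higher and 2922 lower overall. At 2-fold, 1 member, 14 list genes and 426 genes overall were higher, and 292 were lower. At a mean of 10 CPM, Pfkl drops out and the members' median was 0.49, 1 list gene was lower, and 431 genes were higher and 486 lower overall. With any gene of at least 1 count kept, 2389 were higher and 2111 lower. With the length and GC trend removed, 1 member (Pfkl) was lower. The glycolytic enzymes' median, -0.02, was 0.40 with total counts, 0.101 without the 20 most abundant genes, 0.070 without the filter and 0.025 at 10 CPM. These shifts follow from the scaling, threshold or filter itself; for the length and GC correction the cause was not tested. Hk2 and Pfkfb4 were left out by the minimum of 1 CPM, not by the count minimum, and their ratios of 3.98 (interval 2.49 to 6.68) and 3.59 (interval 2.08 to 6.58) rest on few counts.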

Other observations

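Across the whole table, genes with the paired E-box element of Pklr and Txnip were called higher at a somewhat larger share than all genes. They were called lower at a somewhat smaller share. Both gaps rest on few genes and were not tested. Of 8384 measured genes with a RefSeq promoter window, 127 held the pair with at most 2 mismatches. Of these 127 genes, 17 (13.4%) were called higher and 7 (5.51%) lower, beside 10.2% and 9.10% of all 8384, and their median log2 ratio was 0.06. Pklr and Txnip, members chosen with earlier results known, are among the 17. The single exact E-box was held by 1017 genes, of which 11.0% were called higher and 6.59% lower, with a median of -0.01. Of the 28 genes listed as ChREBP targets and partners, 21 had a window, 0 held the pair and 4 held a single E-box. Elements further from the start than these windows reach were not searched.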
